A study of Mus musculus with 21 samples.

Results

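Chemically induced liver progenitors (CLiPs) are proliferating cells obtained by culturing mature hepatocytes with small molecules. The comparison described here sets CLiPs of the first passage (P1) that had been pushed back towards the hepatocyte state against the freshly isolated hepatocytes that were the reference cell type of the study. It uses 6 of the 21 one-colour arrays of the series, 3 of P1 induced CLiPs and 3 of fresh hepatocytes, and all genes on the array. Both groups came from female C57BL/6 mice. Fresh hepatocytes had no culture and no induction according to their titles and source names. Fresh replicate 3 carries a passage label of P1 beside a title and source name of fresh hepatocytes, and was kept with the fresh group. P1 induced CLiPs were kept for 8 days with oncostatin M, an interleukin-6-family cytokine, and dexamethasone, a synthetic glucocorticoid. P1 CLiPs at day 0 and P1 CLiPs after 8 days without the inducers, 3 arrays each, are given beside them where they place a value. The labels do not say whether the 3 arrays of a group came from separate mice or cultures, so p-values measure the spread between these arrays, which may be technical.

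The hepatocyte makes most plasma proteins, disposes of ammonia through the urea cycle, releases glucose, makes bile acids and oxidizes and conjugates foreign compounds, and each of these tasks has its own set of strongly expressed genes. Cultured hepatocytes lose much of this expression and gain genes of bile duct cells and of the fetal liver. Oncostatin M signals through gp130 and STAT3, and together with glucocorticoid it is used to mature fetal hepatocytes and to evoke the acute-phase response, the change in plasma protein production that follows inflammation.

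Signals are given as normalized log2 values, in which 0 is the 75th percentile of all non-control probes of the array. A difference is induced minus fresh on this log2 scale, from the means of 3 against 3 arrays. Its standard error (SE) and p-value come from a limma fit of all 12 fresh and P1 arrays. Their spread is thus pooled over 4 groups and moderated across genes. The words rose and fell are kept for genes whose p-value from limma, adjusted over all tested genes by the Benjamini-Hochberg method, was under 0.05 and whose difference was at least 2-fold. A gene lay within 2-fold when the whole 95% confidence interval of its difference lay between -1 and 1 in log2. A gene that was not well above background on any array of a group has only a bound there, written as "at least N-fold" against the lowest well-measured signal of each array. Where only some arrays of a group were above background, their number is given, and the size of the difference then rests in part on readings below background. Of 37074 names on the array, 19087 were tested because their probe was well above background on all 3 arrays of at least 1 of both groups.

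The induced CLiPs differed from fresh hepatocytes over much of the transcriptome. Of the 19087 tested genes 3739 were higher in induced CLiPs (19.6%), 3826 were lower (20%), 8062 lay within 2-fold (42.2%) and 3460 did neither (18.1%). The groups did not overlap at 74.4% of the tested genes. The median difference over all tested genes was 0.0051. Scaling each array to its median instead moved that median to -0.228, and the share of risen genes among all that rose or fell went from 49.4% to 39%. The same share was 39% when only the 15649 genes above background on all arrays of both groups were tested. Of the 19087 genes, 1400 were above background on no fresh array and 547 on no induced array. Between 46.1% and 46.8% of probes were well above background on the fresh arrays and between 49.5% and 51.5% on the induced ones. Correlations between arrays of a group were 0.9816 to 0.9909 in fresh and 0.9919 to 0.994 in induced cells. No slide held both groups, so slide and group cannot be told apart. Fresh replicates 1 and 2 were scanned on another day than all P1 arrays, and fresh replicate 3 on the same day. With fresh replicate 3 alone as the fresh group, its spread assumed to be like that of the other groups, 3696 genes were higher and 3785 lower. In bulk RNA, fewer cells of a type and less of an RNA in each cell cannot be told apart.

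**Figure D1:**
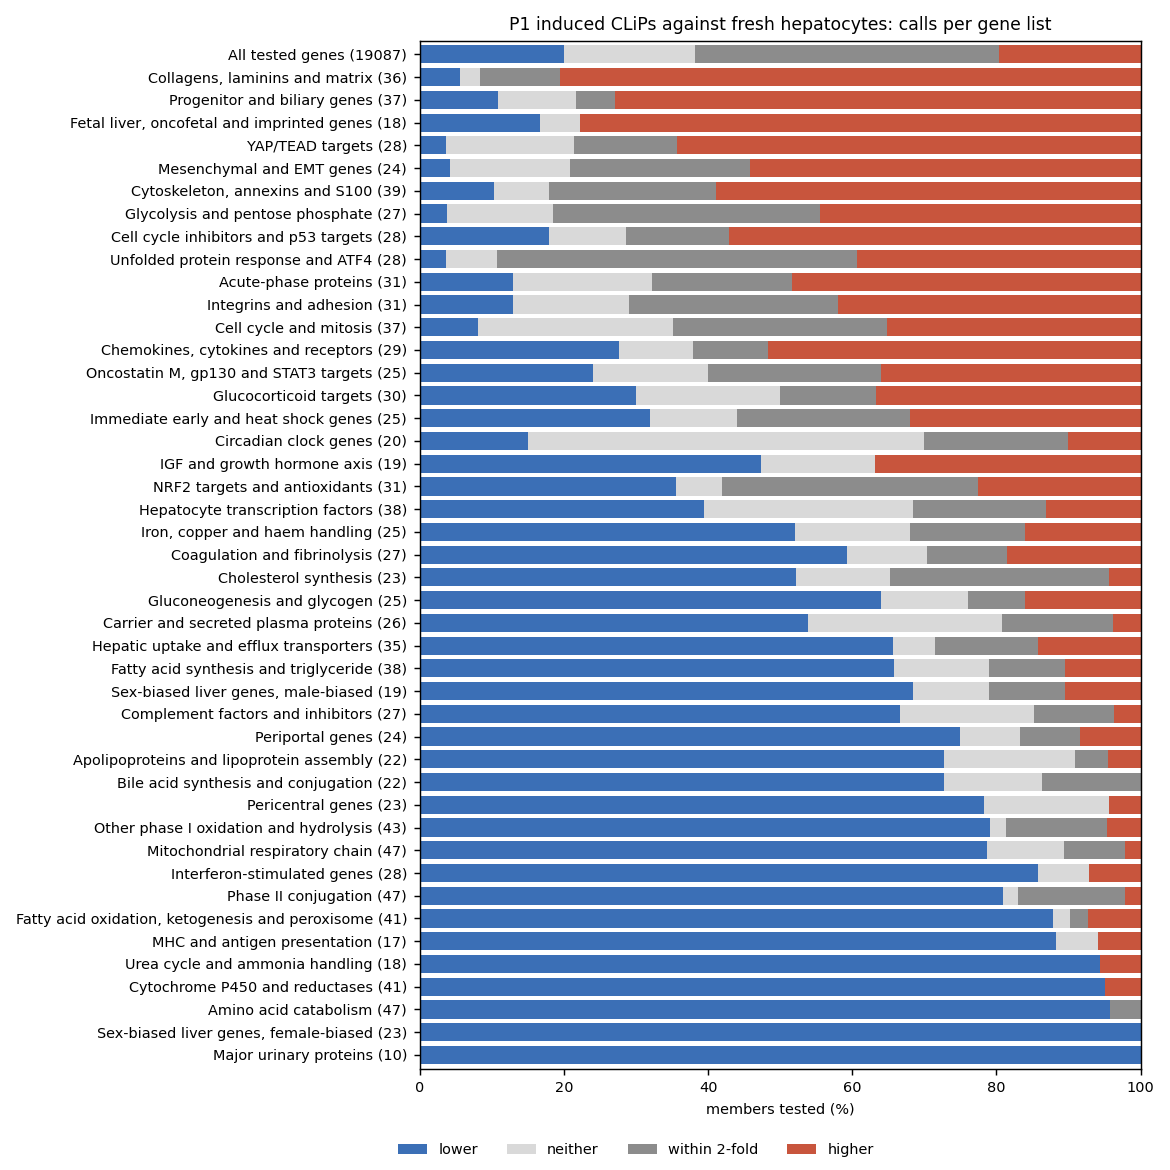
Share of the tested members of each gene list, in percent, that were higher, lower, within 2-fold or neither in P1 induced CLiPs against fresh hepatocytes, 3 arrays each. The top bar gives all 19087 tested genes, with 19.6% higher. Lists of liver metabolism are mostly lower, the acute-phase list is largely higher or within 2-fold, and the progenitor, fetal and matrix lists are mostly higher. In these last 3 lists 16 of 37, 5 of 18 and 7 of 36 members were above background on no fresh array. They were tested only through the induced group. Where both groups had to be above background, the fetal median was -1.31.

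The inducers are known to act on genes through STAT3 and the glucocorticoid receptor, and mature liver genes depend on factors such as HNF4. The 6 promoter stretches below are shown because their genes take opposite courses: the first 3 belong to P450 genes that fell, and the last 3 to acute-phase or inflammation genes, of which Reg3b rose, Fgb stayed within 2-fold and Hamp fell. They are RefSeq sequences of the GRCm38.p6 build, read on the gene's strand and ending at the base before the annotated start. Capitals mark the word CAAAGTCCA, a form of the HNF4 site, in the first 3, and the STAT word TTCNNNGAA in the last 3. Position is counted back from the start.
Cyp2c67, chr19:39649043-39649192, minus strand, word at -125: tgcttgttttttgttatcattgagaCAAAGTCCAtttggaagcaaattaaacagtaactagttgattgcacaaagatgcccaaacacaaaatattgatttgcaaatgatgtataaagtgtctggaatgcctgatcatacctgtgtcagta
Cyp2c69, chr19:39886770-39886919, minus strand, word at -75: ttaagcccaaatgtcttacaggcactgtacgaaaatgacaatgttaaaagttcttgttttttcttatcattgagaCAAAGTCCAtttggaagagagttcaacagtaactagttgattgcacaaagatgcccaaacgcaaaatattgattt
Cyp3a11, chr5:145879855-145880004, minus strand, word at -109: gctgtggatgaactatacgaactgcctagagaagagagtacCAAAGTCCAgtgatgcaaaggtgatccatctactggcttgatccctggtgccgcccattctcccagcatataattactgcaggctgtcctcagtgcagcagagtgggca
Reg3b, chr6:78370685-78370884, plus strand, word at -129: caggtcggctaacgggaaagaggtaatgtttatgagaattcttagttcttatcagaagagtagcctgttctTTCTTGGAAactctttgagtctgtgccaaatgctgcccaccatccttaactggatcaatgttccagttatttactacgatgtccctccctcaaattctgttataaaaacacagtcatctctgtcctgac
Fgb, chr3:83049864-83050063, minus strand, word at -162: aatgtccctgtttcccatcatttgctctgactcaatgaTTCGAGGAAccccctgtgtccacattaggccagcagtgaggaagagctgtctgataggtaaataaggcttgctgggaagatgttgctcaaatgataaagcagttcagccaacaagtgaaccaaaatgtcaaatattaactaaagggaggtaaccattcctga
Hamp, chr7:30944030-30944229, minus strand, word at -97: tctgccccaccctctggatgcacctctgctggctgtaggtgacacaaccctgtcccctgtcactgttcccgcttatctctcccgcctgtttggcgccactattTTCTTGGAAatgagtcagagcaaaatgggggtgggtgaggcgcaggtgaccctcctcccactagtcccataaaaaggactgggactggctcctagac

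Over the 14110 RefSeq promoter windows of tested genes, each running from 250 bases before to 50 after a start and searched on both strands, the HNF4 word occurred in 0.546%. It occurred in 1.14% of the 2907 windows of genes that fell, 0.531% of the 2826 windows of genes that rose and 0.308% of the 6164 windows of genes within 2-fold. The STAT word occurred in 7.21% of all windows, 7.75% of those of risen, 6.91% of those of fallen and 7.27% of those of genes within 2-fold. Other words searched were also commoner in windows of fallen genes than in all windows: HNF1 0.31% against 0.135%, C/EBP 11% against 9.42%. The same held for the glucocorticoid receptor word ACANNNTGT (5.74%, 4.65%), AP-1 (7.74%, 5.75%), TTTGAA (15.9%, 12.8%) and TATAAA (11.7%, 8.78%). The TEAD word was commonest in windows of risen genes, at 14.8% against 13.5% in fallen and 13% in all. A higher share in fallen genes was thus not particular to the HNF4 word. A word match is a description of these letters in these windows and not a binding site.

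Among genes well above background on every array of both groups the lowest were Ces3a, a carboxylesterase, Mup2, a major urinary protein, Hpd, a tyrosine-degrading enzyme, and P450 genes of the Cyp2a and Cyp2c families. Ces3a read 8.65, 8.92 and 8.31 in fresh and -3.11, -3.50 and -2.90 in induced cells, a difference of -11.80 ± 0.19 (adjusted p = 4.3e-12). Hpd read 7.37, 8.15 and 7.81 in fresh and -2.44, -3.08 and -2.16 in induced cells, a difference of -10.33 ± 0.59. The groups lay far apart at both genes, where no overlap between groups was a condition of this ranking. Of the 547 genes on no induced array above background, the 6 with a gene symbol and the highest bounds follow. Akr1c6, an aldo-keto reductase, was at least 6121-fold lower, Car3, a carbonic anhydrase, at least 4452-fold, and Hamp2, a second hepcidin gene, at least 4301-fold. Pon1, a serum esterase, was at least 2305-fold lower, Akr1c20 at least 1657-fold and Sult2a2, a sulfotransferase, at least 1390-fold.

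The largest gains were smaller than the largest falls. Spp1, which encodes the secreted phosphoprotein osteopontin of bile duct cells, read 0.26, -0.83 and -0.07 in fresh and 9.39, 9.29 and 9.55 in induced cells, a difference of 9.62 ± 0.22 (adjusted p = 4.7e-11). Bicc1, an RNA-binding protein of ductal epithelia, rose by 8.79 ± 0.15, and Spink1, a trypsin inhibitor, by 8.59 ± 0.40. All 3 genes were measured on every array of both groups without overlap, and the ranking required both. Scd2, a stearoyl-CoA desaturase, rose by 7.52 ± 0.27 and Anxa3, an annexin, by 7.50 ± 0.18. Tmsb10, a thymosin that binds actin monomers, rose by 8.15 ± 0.16 on its brightest probe, while its probes ranged from 0.38 to 8.31. Among genes on no fresh array above background, those with a gene symbol and the highest bounds began with Reg3b, a secreted lectin of inflamed epithelia, at least 1777-fold higher, A2m at least 1611-fold and Anxa8 at least 1226-fold. Cpe, a carboxypeptidase that processes peptide hormones, was at least 622-fold higher, Basp1, a membrane-associated protein, at least 475-fold, and Cd24a, a surface glycoprotein of progenitors, at least 454-fold.

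**Figure D2:**
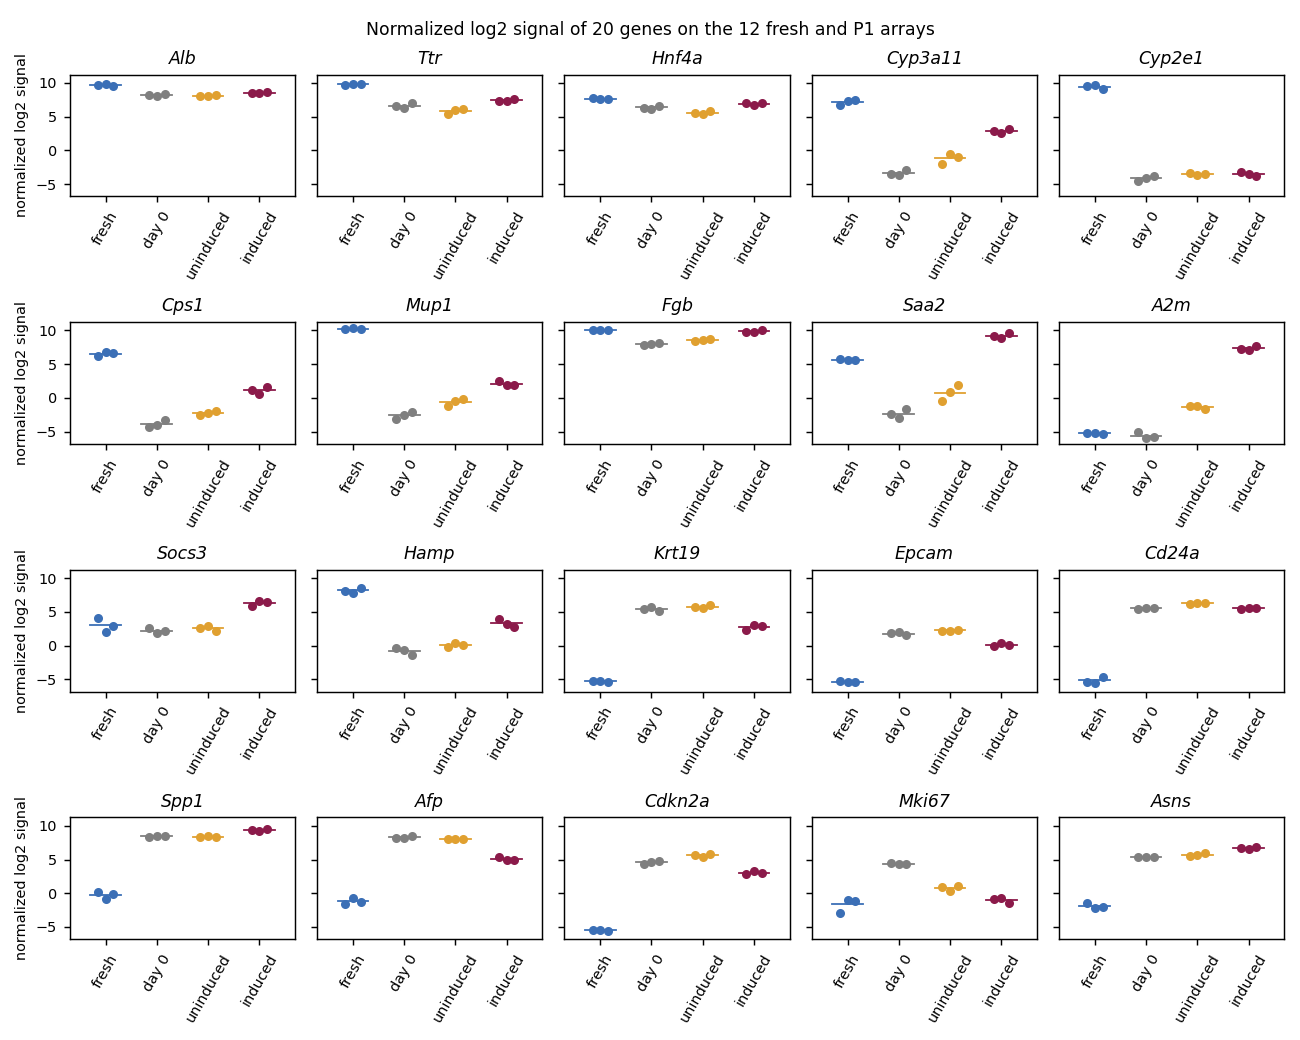
Normalized log2 signal (0 is the 75th percentile of each array) of 20 named genes on every array of fresh hepatocytes, P1 day 0, P1 uninduced and P1 induced CLiPs, 3 arrays each, with a line at each group's mean. Saa2, A2m and Socs3 are highest in the induced group, Cyp2e1 is as low there as in the other CLiPs, and Krt19 and Cd24a are high in every CLiP group.

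By their median, genes of carriers and secreted plasma proteins lay closer to fresh levels in induced than in the other CLiPs. Of 26 tested carriers and secreted proteins 14 fell, 1 rose and 4 lay within 2-fold, with a median difference of -1.10 that was -0.29 after quantile normalization. The medians of the same genes were -2.80 at day 0 and -2.96 without inducers, both against the same fresh arrays. In those other comparisons 27.1% and 26.7% of all tested genes were lower, 22.8% and 21.3% higher, and 33.1% and 34.9% within 2-fold. Against the uninduced cells 14 of the 26 were higher and 1 was lower, where 10.5% and 6.56% of all tested genes were. Alb, albumin, read 9.64, 9.78 and 9.60 in fresh and 8.48, 8.43 and 8.70 in induced cells, so that every induced array was lower. The difference of -1.13 ± 0.11 (adjusted p = 4.6e-06) passed the 2-fold limit narrowly and was -0.40 after quantile normalization, which ends the call. Between induced and uninduced cells Alb lay within 2-fold, as did Trf, Gc, Serpina1a, Serpina1b, Serpina1c and Serpina1d. Ttr, which carries thyroxine and retinol-binding protein, read 9.66, 9.90 and 9.81 in fresh and 7.37, 7.27 and 7.53 in induced cells, a difference of -2.40 ± 0.21. Hpx, the haem scavenger hemopexin, read 9.63, 9.58 and 9.68 in fresh and 9.57, 9.45 and 9.79 in induced cells, and these groups overlapped. Its difference of -0.03 ± 0.15 stood beside -3.41 at day 0 and -3.85 without inducers.

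Other carriers went further in either direction. Serpina6, the corticosteroid-binding globulin, read 8.13, 7.50 and 7.87 in fresh cells and was above background on 1 of 3 induced arrays, with a difference of -12.48 ± 0.67. Serpina7, the thyroxine-binding globulin, was the only tested carrier that rose, by 3.72 ± 0.33. Mug2, a murinoglobulin protease inhibitor, fell by 3.25 ± 0.34 against -11.77 at day 0. The serum protease inhibitors Serpina1b and Serpina1c fell by 1.66 ± 0.19 and 1.06 ± 0.09, and quantile normalization, which gave -0.77 and -0.18, ended both calls. The probe of Serpina1c lists more than 1 gene.

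Apolipoproteins fell more. Of 22 tested genes of lipoprotein assembly 16 fell, 1 rose and 1 lay within 2-fold, with a median of -1.92 against -3.86 at day 0 and -4.44 without inducers. Apoa1, the main protein of high-density lipoprotein, read 7.63, 7.80 and 7.74 in fresh and 5.77, 5.46 and 6.09 in induced cells, a difference of -1.95 ± 0.36 (adjusted p = 0.00052). Apob, the scaffold of very-low-density lipoprotein, fell by 1.40 ± 0.16, and Apoc1 by 1.74 ± 0.19, with -0.97 and -0.85 after quantile normalization, under the 2-fold limit. Apoa5, which promotes triglyceride clearance, fell by 7.58 ± 0.43. Lipc, hepatic lipase, was at least 59.8-fold lower. Abca1, the cholesterol exporter, lay within 2-fold at 0.34 ± 0.17. Apoc2, the cofactor of lipoprotein lipase, rose by 1.1 ± 0.20, a call that median scaling (0.87), leaving out fresh replicate 1 (0.99) and using only scan day 2 (0.98) each ended.

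The major urinary proteins, lipocalins that mice excrete as scent carriers, stayed far below fresh levels. Each of the 10 tested Mup genes fell, with a median of -7.17, against -11.34 at day 0 and -9.58 without inducers. Mup1 read 10.28, 10.41 and 10.18 in fresh and 2.45, 1.86 and 1.96 in induced cells, a difference of -8.20 ± 0.29. Mup21 fell by 6.62 ± 0.34, Mup19 by 9.44 ± 0.30 and Mup2 by 10.50 ± 0.28. Mup genes are near-identical copies and these probes list transcripts of several of them, so the members are not independent readings. The probe read as Mup1, at chr4:60512590-60512649 of mm9 on the minus strand, is shown because it stands for more than 1 gene.
Mup1 probe: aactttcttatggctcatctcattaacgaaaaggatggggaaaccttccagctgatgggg

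In the acute-phase list more members rose than fell. Of 31 tested acute-phase genes 15 rose, 4 fell and 6 lay within 2-fold, with a median difference of 0.99. The medians of the same genes against the same fresh arrays were -5.32 at day 0 and -3.30 without inducers. Against the uninduced cells, 27 of the 31 genes were higher in induced cells and 1 was lower, where 10.5% and 6.56% of all tested genes were. Saa2, a serum amyloid carried on lipoproteins, read 5.75, 5.69 and 5.57 in fresh and 9.14, 8.82 and 9.58 in induced cells, a difference of 3.51 ± 0.49 (adjusted p = 6.8e-05). At day 0 it lay at -8.00 and without inducers at -4.90 relative to fresh. Serpina3n, a protease inhibitor of the antichymotrypsin family, read 3.27, 3.68 and 3.47 in fresh and 7.33, 7.21 and 7.79 in induced cells, a difference of 3.97 ± 0.26. Both genes were higher on every induced than on every fresh array. A2m, the broad protease inhibitor alpha-macroglobulin, was on no fresh array above background and read 7.29, 7.04 and 7.77 in induced cells. Lcn2, which binds bacterial siderophores, rose by 7.71 ± 0.27, with 4.61 at day 0 and 5.86 without inducers. Cd14, the lipopolysaccharide co-receptor, rose by 8.17 ± 0.23, with 6.17 and 6.46.

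The fibrinogen chains Fgb and Fgg and haptoglobin lay within 2-fold of fresh cells. Fgb, the fibrinogen beta chain whose promoter stretch is shown above, read 10.03, 10.03 and 10.02 in fresh and 9.74, 9.81 and 10.06 in induced cells, and the groups overlapped. The difference was -0.16 ± 0.11, beside -2.03 at day 0 and -1.42 without inducers. Fgg differed by -0.43 ± 0.11 and Hp, haptoglobin, by 0.07 ± 0.13. Serpina3k and Serpina3m differed by -0.11 ± 0.31 and -0.32 ± 0.23, while at day 0 they lay at -12.35 and -10.26. The 4 acute-phase genes that fell included both hepcidin genes, which encode the hormone that limits iron export. Hamp read 8.15, 7.84 and 8.58 in fresh and 3.95, 3.15 and 2.83 in induced cells, a difference of -4.88 ± 0.34, against -8.98 at day 0 and -8.06 without inducers. Its promoter stretch holds the same TTCTTGGAA letters as that of Reg3b.

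Complement and clotting factors fell in most cases. Of 27 tested complement genes 18 fell, 1 rose and 3 lay within 2-fold, with a median of -1.77 against -5.71 at day 0 and -4.54 without inducers. C8g, a chain of the membrane attack complex, read 8.64, 8.58 and 8.58 in fresh and 2.64, 2.29 and 2.90 in induced cells, a difference of -5.99 ± 0.22. Mbl2, a mannose-binding lectin, fell by 4.93 ± 0.26. C4b differed by -0.09 ± 0.20 and Serping1, the complement C1 inhibitor, by 0.08 ± 0.15, both within 2-fold. C3, the central component, read 10.57, 10.67 and 10.59 in fresh and 9.76, 9.72 and 9.94 in induced cells, and its difference of -0.80 ± 0.09 was under the 2-fold limit. C6, another chain of the attack complex, rose by 2.68 ± 0.33.

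Of 27 tested genes of coagulation and fibrinolysis 16 fell, 5 rose and 3 lay within 2-fold. Klkb1, plasma prekallikrein, read 6.22, 6.10 and 5.99 in fresh cells and was above background on 1 of 3 induced arrays, with a difference of -9.76 ± 0.20. F11, a factor of the contact pathway, fell by 4.20 ± 0.33. Cpb2, an inhibitor of fibrin breakdown, read 7.52, 7.46 and 7.49 in fresh and 7.65, 7.82 and 8.26 in induced cells, and lay within 2-fold at 0.42 ± 0.25, beside -7.19 at day 0. Thbd, thrombomodulin, rose by 4.85 ± 0.48, with 1 of 3 fresh arrays above background.

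Genes of foreign compound metabolism lay far below fresh hepatocytes. Of 41 tested P450 and reductase genes 39 fell and 2 rose, with a median of -4.58 against -7.96 at day 0 and -7.91 without inducers. In 25 of them the induced cells were higher than the uninduced cells, where 10.5% of all tested genes were. Cyp3a11, the main drug-oxidizing enzyme of its family, read 6.77, 7.38 and 7.46 in fresh and 2.93, 2.51 and 3.18 in induced cells, a difference of -4.33 ± 0.35 (adjusted p = 8.9e-07). It lay at -10.57 at day 0 and -8.35 without inducers. Cyp2e1, which oxidizes ethanol, read 9.49, 9.71 and 9.13 in fresh and -3.19, -3.58 and -3.81 in induced cells, where 2 of 3 arrays were above background. Its difference of -12.97 ± 0.21 stood beside -13.60 and -12.99. Cyp1a2, the caffeine-metabolizing enzyme, was at least 127-fold lower. Cyp3a11 thus lay higher in the induced than in the uninduced cells, by 4.03, while the Cyp2e1 difference between those cells was 0.02.

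Several Cyp2c genes were among the lowest, of which Cyp2c67 and Cyp2c69 carry the HNF4 word shown above. The promoter window read for Cyp2c37, which fell as far, did not hold that word. Cyp2c67 read 8.67, 8.95 and 8.36 in fresh and -1.23, -1.42 and -1.35 in induced cells, a difference of -10.00 ± 0.19. Cyp2c69 differed by -10.04 ± 0.22, Cyp2c50 by -10.51 ± 0.44, Cyp2c37 by -10.31 ± 0.28 and Cyp2c54 by -10.30 ± 0.42, and all of them fell. Cyp2a4 and Cyp2a5, which hydroxylate steroids and coumarin, fell by 11.03 ± 0.58 and 10.24 ± 0.44. Members of these families share long stretches of sequence, and the probes of Cyp2a4, Cyp2c37, Cyp2c69 and Cyp3a11 list more than 1 gene. The probe read as Cyp3a11, from 146672058 to 146673925 on chromosome 5 of mm9 across an intron, is an example.
Cyp3a11 probe: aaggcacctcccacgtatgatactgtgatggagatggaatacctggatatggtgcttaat
The 2 P450 genes that rose were Cyp2s1, an enzyme of surface epithelia, at least 11.8-fold, and Cyp4a12a, a fatty acid hydroxylase, by 3.15 ± 0.57, with 2 of 3 fresh arrays above background.

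Other oxidizing and conjugating enzymes followed. Of 43 tested phase I genes outside the P450 family 34 fell, 2 rose and 6 lay within 2-fold, with a median of -3.60. Adh1, the main alcohol dehydrogenase, read 6.88, 7.11 and 7.21 in fresh and -2.37, -3.78 and -3.18 in induced cells, with 2 of 3 induced arrays above background, a difference of -10.18 ± 0.37. Akr1b8, an aldo-keto reductase, rose by 3.01 ± 0.24 and Aldh3b1, an aldehyde dehydrogenase, by 1.96 ± 0.21. Maoa, monoamine oxidase, lay within 2-fold at -0.14 ± 0.11. Fmo1, a flavin monooxygenase, lay within 2-fold at 0.14 on its brightest probe, while the mean of its probes gave -4.46. Of 47 tested phase II genes 38 fell, 1 rose and 7 lay within 2-fold, with a median of -3.47, or -2.00 where both groups had to be above background. Sult2a1, which sulfates steroids, was at least 1073-fold lower and Ugt2b1, a glucuronosyltransferase, at least 132-fold. Sult1a1, the phenol sulfotransferase, read 7.61, 7.80 and 7.96 in fresh and 7.39, 7.31 and 7.94 in induced cells, overlapping groups with a difference of -0.24 ± 0.18, against -3.65 at day 0 and -4.19 without inducers.

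Transport and bile acid genes fell on the whole. Of 35 tested uptake and efflux transporters 23 fell, 5 rose and 5 lay within 2-fold, with a median of -2.59. Abcb11, the bile salt export pump, read 7.95, 7.86 and 7.82 in fresh and 2.19, 1.67 and 2.55 in induced cells, a difference of -5.74 ± 0.27 against -13.01 at day 0 and -12.09 without inducers. Slc47a1, which exports cations into bile, was at least 542-fold lower. Aqp1, a water channel of bile ducts and vessels, was at least 67-fold lower. Slco3a1, an organic anion carrier, rose by 7.40 ± 0.30, with 2 of 3 fresh arrays above background, and Abcc1, a drug efflux pump, was at least 7.43-fold higher. Slc10a1, the bile acid uptake carrier, differed by -0.32 ± 0.10 on its brightest probe, which lists transcripts of other genes too. The brightest probe that lists Slc10a1 alone gave -6.98, a fall.

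Of 22 tested bile acid genes 16 fell and 3 lay within 2-fold, with a median of -3.43, or -1.80 where both groups had to be above background. Cyp7a1, the rate-limiting enzyme of bile acid synthesis, read 2.14, 2.60 and 3.15 in fresh cells and was above background on no induced array, at least 71.6-fold lower. Nr0b2, the receptor that represses it, was at least 42.3-fold lower. Acnat2, a peroxisomal conjugating enzyme, read 3.07, 4.62 and 4.11 in fresh and 3.80, 3.93 and 4.12 in induced cells, overlapping groups with a difference of 0.02 ± 0.34.

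Genes of nitrogen metabolism fell almost throughout. Of 18 tested genes of the urea cycle and ammonia handling 17 fell and 1 rose, with a median of -4.50 against -4.88 at day 0 and -4.96 without inducers. Counting the 3 members dim in induced cells at their bound gave a median of -4.35. Cps1, which starts the urea cycle, read 6.19, 6.82 and 6.63 in fresh and 1.23, 0.64 and 1.63 in induced cells, a difference of -5.38 ± 0.32 (adjusted p = 6.4e-08), against -10.38 at day 0. Otc, the next enzyme of the cycle, read 6.89, 6.78 and 6.80 in fresh cells and was above background on no induced array, at least 1307-fold lower. Gls2, the liver glutaminase, fell by 8.50 ± 0.15. Of 47 tested genes of amino acid breakdown 45 fell and 2 lay within 2-fold, with a median of -4.26 against -6.20 and -6.81. Tat, a glucocorticoid-inducible tyrosine aminotransferase, read 6.78, 7.62 and 7.37 in fresh and 2.35, 1.21 and 1.83 in induced cells, a difference of -5.47 ± 0.28, and lay 3.00 above the uninduced cells. Tdo2, which opens the tryptophan ring, fell by 7.60 ± 0.21, and Sds, serine dehydratase, by 8.84 ± 0.25. The members within 2-fold were Sdsl at -0.15 ± 0.11 and Mat2a, the methionine adenosyltransferase of non-liver tissues, at 0.53 ± 0.16.

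Most genes of glucose production fell and several glycolytic genes rose. Of 25 tested genes of gluconeogenesis and glycogen 16 fell, 4 rose and 2 lay within 2-fold, with a median of -1.73. Pck1, which commits carbon to gluconeogenesis in the cytosol, read 7.78, 8.46 and 7.55 in fresh and -3.24, -5.99 and -5.79 in induced cells, with 1 induced array above background. The fitted Pck1 difference of -12.93 ± 0.70 includes the readings of the arrays below background, and Pck2, the mitochondrial form, rose by 4.65 ± 0.12. G6pc, which releases free glucose, read 4.92, 7.49 and 6.44 in fresh and 2.96, 2.91 and 2.19 in induced cells, a difference of -3.60 ± 0.50 against -9.23 at day 0. Pygb, the brain-type glycogen phosphorylase, rose by 3.53 ± 0.19, with 1 of 3 fresh arrays above background. Of 27 tested genes of glycolysis and the pentose phosphate pathway 12 rose, 1 fell and 10 lay within 2-fold, with a median of 0.74. Pkm, the pyruvate kinase of muscle and growing cells, read -0.53, -1.18 and -0.74 in fresh and 6.41, 6.64 and 6.69 in induced cells, a difference of 7.40 ± 0.18. Pfkp, the platelet phosphofructokinase, rose by 8.28 ± 0.31, with 2 of 3 fresh arrays above background. The pentose phosphate enzyme Pgls stayed within 2-fold at 0.01 ± 0.12.

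Fat metabolism lay below fresh levels, with selected exceptions. Of 41 tested genes of fatty acid oxidation and peroxisomes 36 fell, 3 rose and 1 lay within 2-fold, with a median of -2.43. Bdh1, which makes the ketone body hydroxybutyrate, fell by 6.56 ± 0.15 and Hacl1, a peroxisomal lyase, by 5.78 ± 0.22. Cd36, the fatty acid uptake receptor, read 1.89, 1.96 and 2.06 in fresh and 2.26, 2.13 and 2.51 in induced cells, and its difference of 0.33 ± 0.17 lay within 2-fold, beside -6.64 at day 0 and -6.65 without inducers. Fgf21, a fasting hormone of the liver, rose by 6.13 ± 0.75. It read -0.32, -3.71 and -3.81 in fresh, of which 1 array was above background, and 3.54, 3.29 and 3.72 in induced cells. Of 38 tested genes of fatty acid and triglyceride synthesis 25 fell, 4 rose and 4 lay within 2-fold, with a median of -1.61. Thrsp, a lipogenic regulator, fell by 3.51 ± 0.33 against -10.35 at day 0, and Acsl1, an acyl-CoA synthetase, by 3.72 ± 0.15. Cidea, a lipid droplet protein of brown fat, was at least 13.7-fold higher. Gpam, which starts triglyceride synthesis, lay within 2-fold at 0.39 ± 0.17.

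Of 23 tested cholesterol synthesis genes 12 fell, 1 rose and 7 lay within 2-fold, with a median of -1.01 against -0.76 at day 0 and -2.16 without inducers. After quantile normalization 7 fell and the median was -0.56. Insig1, a sterol-responsive retention protein, fell by 2.95 ± 0.17, and Sqle, squalene epoxidase, rose by 1.99 ± 0.19. Of 47 tested genes of the respiratory chain and its regulators 37 fell, 1 rose and 4 lay within 2-fold, with a median of -1.48, against -1.50 at day 0 and -1.72 without inducers. Only 1 of them was higher in induced than in uninduced cells, where 10.5% of all tested genes were. Sdhb, a succinate dehydrogenase subunit, read 7.96, 7.95 and 7.98 in fresh and 5.74, 5.57 and 5.77 in induced cells, a difference of -2.27 ± 0.09. Ppargc1a, a coactivator of mitochondrial genes, fell by 4.22 ± 0.24, with 2 of 3 induced arrays above background, and Tfam, the mitochondrial transcription factor, lay within 2-fold at -0.45 ± 0.10.

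**Figure D3:**
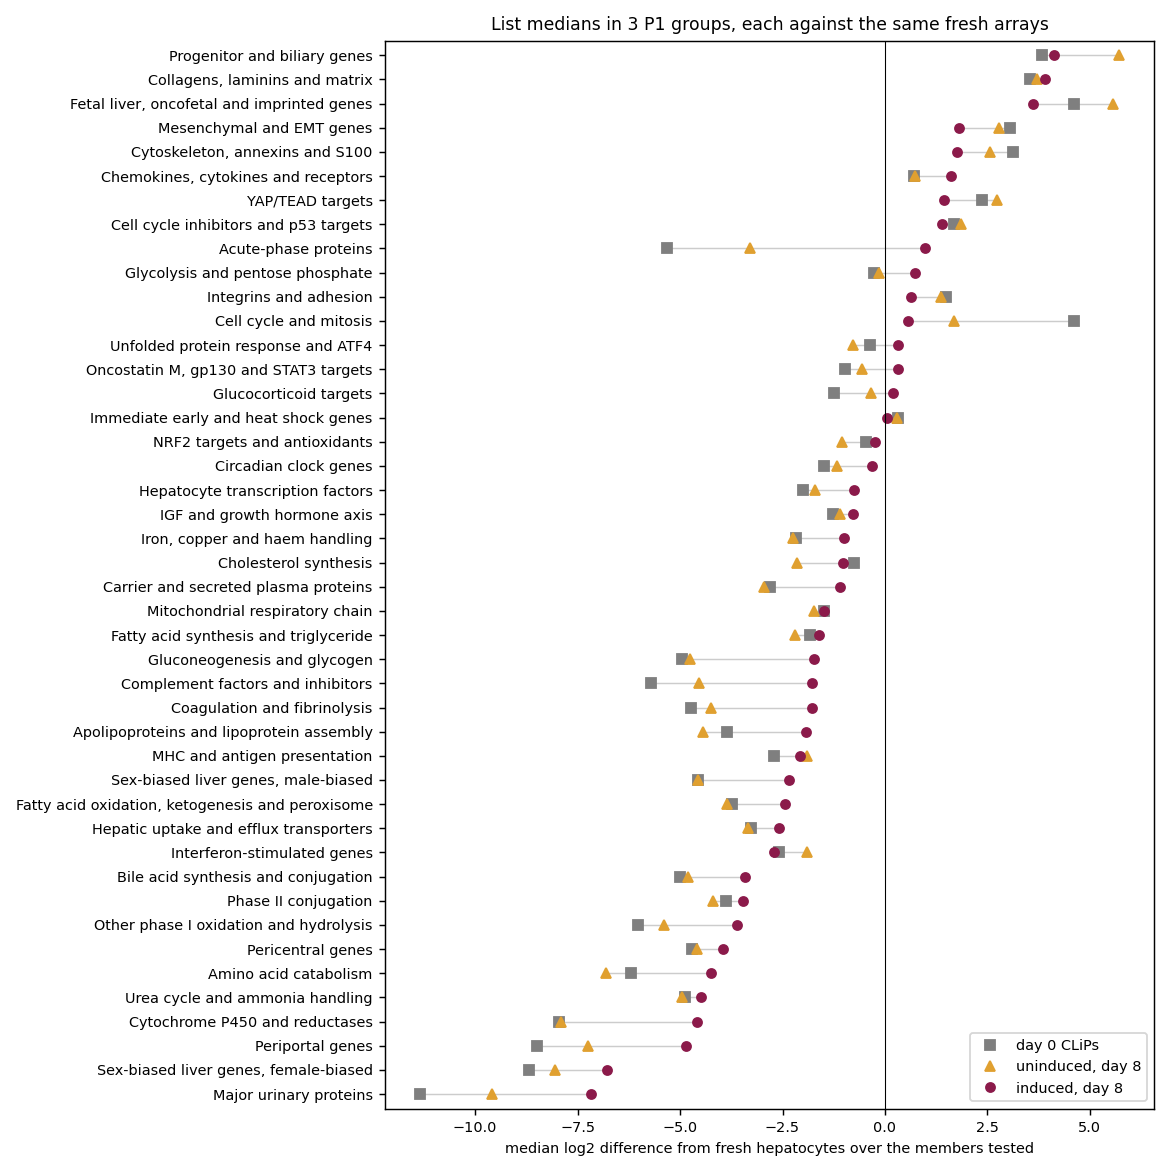
Median difference from fresh hepatocytes over the tested members of each list, on the normalized log2 scale, for P1 day 0 (squares), P1 uninduced (triangles) and P1 induced CLiPs (circles), all against the same 3 fresh arrays. The acute-phase median lies at 0.99 in induced cells and at -5.32 and -3.30 in the others, while the respiratory chain medians lie between -1.72 and -1.48.

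Transcription factors of the hepatocyte moved in both directions, with more that fell than rose. Of 38 tested factors and nuclear receptors 15 fell, 5 rose and 7 lay within 2-fold, with a median of -0.76 against -2.01 at day 0 and -1.70 without inducers. Quantile normalization gave a median of -0.46. Hnf4a, which maintains the mature hepatocyte, read 7.76, 7.57 and 7.65 in fresh and 6.97, 6.69 and 7.05 in induced cells. Every induced array was lower, and the difference of -0.76 ± 0.16 (adjusted p = 0.0014) was under the 2-fold limit. Cebpa, a factor of metabolic liver genes, read 4.62, 4.49 and 4.29 in fresh and 1.05, 1.53 and 1.95 in induced cells, a difference of -2.96 ± 0.21. Cebpd, a factor of the acute phase, read 1.07, 0.87 and 1.43 in fresh and 6.46, 6.18 and 6.38 in induced cells, a difference of 5.22 ± 0.17, with 3.24 at day 0. These C/EBP genes thus moved in opposite directions. Esr1, the oestrogen receptor, fell by 6.52 ± 0.23, with 1 of 3 induced arrays above background. Hhex and Onecut2, factors of liver and duct development, lay within 2-fold at 0.10 ± 0.20 and 0.20 ± 0.21.

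Genes that differ between male and female liver could be read only in these female samples. All 23 tested genes on the female-biased list fell, with a median of -6.78, or -5.84 with the 10 members dim in induced cells at their bound. Where both groups had to be above background 12 fell, and among probes that list 1 gene 15 fell. Of 19 tested male-biased genes 13 fell, 2 rose and 2 lay within 2-fold. Those that rose were Cyp4a12a and Cyp4a12b, the latter by 3.59 ± 0.54. Cyp4a12b read -3.25, -1.55 and -3.65 in fresh cells, with 1 array above background, and 0.45, 0.25 and 1.63 in induced cells. Prlr, the prolactin receptor, fell by 5.84 ± 0.15. Genes of both zones of the liver lobule mostly fell. Of 23 tested genes of the zone around the central vein 18 fell and 1 rose, and of 24 tested genes of the zone around the portal vein 18 fell and 2 rose, with medians of -3.95 and -4.87. With the 4 central members dim in induced cells at their bound their median was -2.85, and it was -2.57 under normexp and -2.15 where both groups had to be above background. Etnppl, a periportal phospho-lyase, was at least 976-fold lower. Those that rose were Ahr, the dioxin receptor, by 1.32 ± 0.13 on the central list, and the duct genes Sox9 and Spp1 on the portal list.

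More genes of iron handling fell than rose, while the IGF axis was split. Of 25 tested genes of iron, copper and haem 13 fell, 4 rose and 4 lay within 2-fold. Hmox1, haem oxygenase, read 1.85, 1.24 and 1.18 in fresh and 5.02, 5.61 and 5.51 in induced cells, a difference of 3.96 ± 0.56. Bmp6, which drives hepcidin expression, rose by 3.34 ± 0.16, with 1 of 3 fresh arrays above background, and Fth1, ferritin heavy chain, lay within 2-fold at -0.17 ± 0.08. Of 19 tested genes of the IGF axis 9 fell and 7 rose. Igf1, the growth factor secreted in response to growth hormone, read 2.86, 2.95 and 2.58 in fresh and 1.04, 0.87 and 1.06 in induced cells, a difference of -1.81 ± 0.11 on its brightest probe, with -5.74 on its lowest. Igf2, the fetal growth factor, was on no fresh array above background and read 2.68, 2.73 and 3.00 in induced cells, at least 68.3-fold higher. Among the binding proteins Igfbp2 was at least 967-fold lower and Igfbp6 at least 47.8-fold higher.

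Genes of liver progenitors and bile duct cells stayed high. Of 37 tested progenitor and biliary genes 27 rose, 4 fell and 2 lay within 2-fold, with a median of 4.13, against 3.83 at day 0 and 5.72 without inducers. With the 16 members dim in fresh cells at their bound the median was 3.12, and 10 rose where both groups had to be above background, with a median of 2.14. It was 2.64 under normexp and 2.50 as the mean of each gene's probes. Against the uninduced cells 22 were lower and 2 higher, where 6.56% and 10.5% of all tested genes were. Krt19, a keratin of bile ducts, read 2.30, 3.05 and 2.84 in induced cells and was on no fresh array above background, at least 64.8-fold higher. It lay 3.01 below the uninduced cells. Krt7, its partner in duct cells, was at least 26-fold higher and Epcam, an adhesion protein of ducts, at least 10.6-fold. Cd24a read 5.39, 5.60 and 5.63 in induced cells, and differed from uninduced cells by -0.74. Sox9, the duct transcription factor, read -1.03, -1.47 and -0.65 in fresh and 1.91, 2.33 and 1.98 in induced cells, a difference of 3.12 ± 0.21. Among the keratins shared with hepatocytes, Krt18 rose by 1.26 ± 0.14, and Krt8 differed by 0.97 ± 0.14, just under the limit. Krt23, a stress keratin, read 0.85, 1.71 and 2.10 in fresh and -3.55, -3.42 and -2.53 in induced cells, with 2 of 3 induced arrays above background, a difference of -4.72 ± 0.38. Without inducers it lay at 2.19 above fresh.

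Of 18 tested genes of fetal liver and imprinted genes 14 rose and 3 fell, with a median of 3.60, against 4.60 at day 0 and 5.56 without inducers. With the 5 members dim in fresh cells at their bound the median was 2.85. Where both groups had to be above background 2 rose and 3 fell, and the median turned to -1.31. It was 1.57 under normexp, 2.34 as the mean of each gene's probes and 2.24 with no filter on dim probes. Afp, the fetal counterpart of albumin, read -1.64, -0.71 and -1.32 in fresh and 5.38, 4.86 and 4.87 in induced cells, a difference of 6.26 ± 0.22 (adjusted p = 1.2e-09), against 9.49 and 9.24. H19, an imprinted non-coding RNA, rose by 8.26 ± 0.58, with 1 of 3 fresh arrays above background. Those that fell were Slc38a4, an amino acid carrier, by 4.60 ± 0.27, Cdkn1c, an imprinted cell cycle inhibitor, by 2.50 ± 0.17, and Sall4, a stem cell factor named after its value was seen because it completes the 3. Alb and Afp thus moved in opposite directions, with Alb lower and Afp higher on every induced array.

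**Figure D4:**
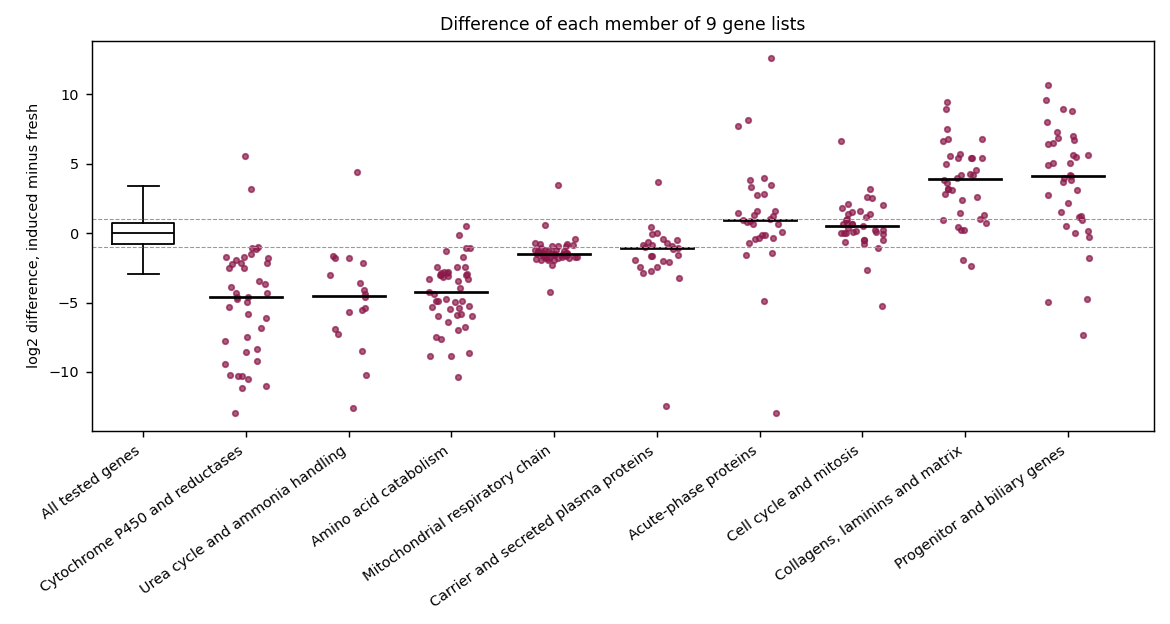
Difference between P1 induced CLiPs and fresh hepatocytes (normalized log2 scale) for each tested member of 9 lists, with the list's median as a line and, beside them, a box of all tested genes with whiskers from the 5th to the 95th percentile. Dashed lines mark 2-fold. Members of 1 list range widely: the acute-phase genes run from -12.92 to 12.60.

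Of 37 tested genes of replication and mitosis 13 rose, 3 fell and 11 lay within 2-fold, with a median of 0.55. The median was 0.35 with members dim in 1 group at their bound, 0.27 without fresh replicate 1 and 0.21 within scan day 2. It ranged from 0.20 to 0.32 under median scaling, normexp and the other filters. At day 0 the median was 4.61 with 36 higher, and without inducers 1.68 with 28 higher. Of all tested genes 22.8% and 21.3% were higher in those comparisons. Induced cells were lower than uninduced cells at 24 of the 37 listed genes, and at 6.56% of all tested genes. Mki67, a marker of dividing cells, read -2.88, -0.98 and -1.10 in fresh and -0.80, -0.75 and -1.39 in induced cells, overlapping groups with a difference of 0.68 ± 0.43 (adjusted p = 0.17), against 6.05 at day 0. Pcna, the replication clamp, lay within 2-fold at -0.04 ± 0.11. The cyclins of early division moved apart. Ccnd1 read 4.98, 4.01 and 4.06 in fresh and 1.62, 1.75 and 1.77 in induced cells, a difference of -2.64 ± 0.26, while Ccnd2 rose by 6.65 ± 0.23. Tk1, thymidine kinase, fell by 5.25 ± 0.15 and Rrm2, a ribonucleotide reductase subunit, rose by 3.20 ± 0.36.

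Of 28 tested cell cycle inhibitors and p53 targets 16 rose, 5 fell and 4 lay within 2-fold, with a median of 1.39, or 0.67 where both groups had to be above background. Cdkn2a, an inhibitor that accumulates in cultured and senescent cells, was on no fresh array above background and read 2.89, 3.24 and 3.05 in induced cells, at least 81.5-fold higher. Phlda3, a p53 target, rose by 7.43 ± 0.28, and Pmaip1, a pro-apoptotic p53 target, was at least 105-fold higher. Perp, another p53 target of cell junctions, fell by 1.68 ± 0.11.

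Many matrix, adhesion and cytoskeleton genes rose. Of 36 tested collagens, laminins and other matrix genes 29 rose, 2 fell and 4 lay within 2-fold, with a median of 3.92, and 16 rose where both groups had to be above background. As the mean of each gene's probes the median was 2.38. Mmp7, an epithelial metalloproteinase, was at least 171-fold higher. Col1a1, the main collagen of fibroblasts, was at least 43.6-fold higher, but its induced arrays read 3.25, 2.74 and 0.48. Col3a1 rose by 5.44 ± 1.06 with induced arrays at 3.30, 2.32 and 0.51, so that replicate 3 was the lowest at both genes. Col18a1, the basement membrane collagen that hepatocytes make, fell by 1.94 ± 0.09 and Mmp19 by 2.35 ± 0.14. Bgn, biglycan, lay within 2-fold at 0.26 ± 0.29.

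Of 24 tested mesenchymal genes 13 rose, 1 fell and 6 lay within 2-fold, with a median of 1.81, or 1.37 with dim members at their bound, 0.91 under normexp and 0.56 where both groups had to be above background. Vim, the intermediate filament of mesenchymal and cultured cells, read -0.67, -1.98 and -1.0 in fresh and 5.35, 5.22 and 5.15 in induced cells, a difference of 6.45 ± 0.27. S100a6, a calcium-binding protein, rose by 9.61 ± 0.15, with 1 of 3 fresh arrays above background. The transcription factors Snai2 and Zeb1 lay within 2-fold at -0.16 ± 0.28 and -0.16 ± 0.14, and so did Cdh1, the epithelial cadherin, at 0.64 ± 0.10. Tgfbi, a matrix adaptor, was at least 19.6-fold lower. Of 31 tested integrins and adhesion genes 13 rose and 4 fell. Itgb4, the hemidesmosome integrin, rose by 5.09 ± 0.16, Cdh17, a cadherin of gut and ducts, was at least 22.5-fold higher, and Ceacam1, a canalicular adhesion protein, fell by 4.89 ± 0.32. Gjb2, a gap junction protein, lay within 2-fold at -0.08 ± 0.20 against -4.51 at day 0.

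Of 28 tested targets and components of YAP and TEAD, which respond to stretch and loss of contact, 18 rose, 1 fell and 4 lay within 2-fold, with a median of 1.43 against 2.37 at day 0 and 2.73 without inducers. Ctgf, a matrix signalling protein, read -3.18, -4.03 and -2.61 in fresh, with 1 array above background, and 5.47, 6.04 and 5.17 in induced cells, a difference of 8.83 ± 0.32. Myof, a membrane repair protein, was at least 180-fold higher. Nt5e, an ectonucleotidase, fell by 6.91 ± 0.63, with 1 of 3 induced arrays above background, and Yap1 itself lay within 2-fold at -0.11 ± 0.09. Of 39 tested cytoskeleton, annexin and S100 genes 23 rose, 4 fell and 9 lay within 2-fold. Anxa8 read 6.76, 7.21 and 6.95 in induced cells and stood 4.15 above the uninduced cells. Actb, beta actin, read 8.28, 8.58 and 8.19 in fresh and 8.36, 8.41 and 8.60 in induced cells, within 2-fold at 0.11 ± 0.12, and Tuba4a, an alpha tubulin, fell by 2.31 ± 0.14.

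The known targets of the inducers themselves were divided. Of 30 tested glucocorticoid targets 11 rose, 9 fell and 4 lay within 2-fold, with a median of 0.19 that was -0.04 under median scaling. Against the uninduced cells 20 were higher and 1 lower, where 10.5% and 6.56% of all tested genes were. Fkbp5, a chaperone of the glucocorticoid receptor, read 3.49, 3.09 and 2.77 in fresh and 4.24, 4.40 and 4.38 in induced cells, a difference of 1.22 ± 0.17 that was 0.99 under median scaling. Slc10a6, a steroid sulfate carrier, was at least 52.4-fold higher, and stood 5.11 above the uninduced cells. The metabolic members Pck1, Tat, Tdo2 and G6pc were among those that fell. Of 25 tested genes of oncostatin M, gp130 and STAT3 signalling 9 rose, 6 fell and 6 lay within 2-fold, with a median of 0.31. It was 0.08 under median scaling, 0.69 after quantile normalization, 0.60 without fresh replicate 2 and 0.76 within scan day 2. Socs3, the feedback inhibitor of gp130, read 4.09, 2.00 and 2.94 in fresh and 5.84, 6.65 and 6.49 in induced cells, a difference of 3.32 ± 0.45, beside -0.78 at day 0 and -0.42 without inducers. Osmr, the oncostatin M receptor chain, read -1.98, -3.06 and -2.39 in fresh and 4.71, 4.91 and 4.77 in induced cells, a difference of 7.27 ± 0.24. It was already at 4.88 at day 0. Lifr, which pairs with gp130 for related cytokines, fell by 3.09 ± 0.22 and Jak1, the gp130-bound kinase, lay within 2-fold at 0.27 ± 0.09.

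Of 28 tested genes of the unfolded protein response and of ATF4 signalling, 11 rose, 1 fell and 14 lay within 2-fold, with a median of 0.32. It was 0.09 under median scaling, 0.70 after quantile normalization, 0.13 as the mean of each gene's probes and 0.58 without fresh replicate 2. Asns, asparagine synthetase and a target of ATF4, read -1.38, -2.19 and -2.01 in fresh and 6.66, 6.51 and 6.81 in induced cells, a difference of 8.52 ± 0.19. Phgdh, the first enzyme of serine synthesis, was at least 446-fold higher, and Psat1, the next enzyme, rose by 10.01 ± 0.46, with 1 of 3 fresh arrays above background. Nupr1, a stress-induced chromatin protein, rose by 7.67 ± 0.28. The endoplasmic reticulum chaperones Canx and Hyou1 lay within 2-fold at 0.05 ± 0.09 and 0.09 ± 0.22, and Edem1, which clears misfolded glycoproteins, fell by 1.28 ± 0.16. Of 31 tested NRF2 targets and antioxidants 7 rose, 11 fell and 11 lay within 2-fold, with a median of -0.24 that was 0.02 after quantile normalization. It ranged from -0.56 to -0.39 under median scaling, without slide 5, among probes of 1 gene and where both groups had to be above background. Gpx3, the plasma glutathione peroxidase, was at least 306-fold higher and Cbr3, a carbonyl reductase, rose by 5.86 ± 0.39, with 1 of 3 fresh arrays above background. Gsta2 and Gsta4, glutathione transferases, fell by 4.47 ± 0.40 and 4.23 ± 0.24, and Gpx4, the lipid peroxidase, lay within 2-fold at -0.05 ± 0.09.

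Interferon and antigen presentation genes were lower. Of 28 tested interferon-stimulated genes 24 fell and 2 rose, with a median of -2.70 against -2.59 at day 0 and -1.91 without inducers. Oasl1, an antiviral regulator, read 2.61, 4.43 and 4.71 in fresh and 0.35, -1.58 and -1.48 in induced cells, a difference of -4.82 ± 0.60, and Gbp3, a guanylate-binding protein, was at least 43.1-fold lower. Isg20, an exonuclease, rose by 1.54 ± 0.14. Stat2, a transducer of the interferon signal, rose by 1.15 ± 0.11, a call ended by median scaling (0.92) and by the mean of its probes (0.85). Of 17 tested MHC and antigen presentation genes 15 fell and 1 rose, with a median of -2.07. Cd1d1, which presents lipids, read 6.88, 7.15 and 7.06 in fresh and 3.19, 2.96 and 3.25 in induced cells, a difference of -3.90 ± 0.14. H2-Eb1, a class II chain of antigen-presenting cells, was at least 14.3-fold lower. Macrophage markers moved with both lists: of 18 tested Kupffer cell markers 14 fell, and 13 of 20 were below background on every induced array against 1 of 20 on the fresh arrays, and their part in these falls was not tested.

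Chemokine genes rose more often than they fell, with 15 higher, 8 lower and 3 within 2-fold of 29 tested and a median of 1.61. The median was -0.41 where both groups had to be above background, with 7 members higher, 1.05 with dim members at their bound, 0.58 under normexp, 1.06 as the mean of each gene's probes and 0.26 with no filter. Ccl2, which attracts monocytes, read -2.54, -3.60 and -3.16 in fresh, with 2 arrays above background, and 3.28, 3.61 and 3.45 in induced cells, a difference of 6.55 ± 0.22. It lay 4.13 below the uninduced cells. Cxcl14 was at least 17.2-fold higher, and stood 5.08 above the uninduced cells. Cxcl9, an interferon-inducible chemokine, was at least 34.7-fold lower and Il18, a cytokine of the inflammasome, fell by 4.89 ± 0.10.

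Markers of other liver cells bear on these lists and were read as summed signals of the tested members, with the 75th percentile of each array as 1. The 16 tested of 20 sinusoidal endothelial markers summed to 21.9 to 35.1 in fresh and 6.96 to 8.45 in induced cells. Of all 20, 3 in fresh and 10 in induced cells were below background on all arrays of the group. Kdr, the endothelial growth factor receptor, was at least 25-fold lower, while Pecam1 lay within 2-fold at -0.21 ± 0.15. The 18 tested of 20 Kupffer cell and macrophage markers summed to 32.4 to 87.1 in fresh and 101 to 140 in induced cells. Cd14 was the 1 of them that rose, while 14 fell and 3 lay within 2-fold. The higher sum thus does not give the course of most members. The list members Cd5l and Lyz2 were above background on no induced array, at least 53.3-fold and 53.5-fold lower. In fresh cells Cd5l read 3.39, 1.05 and 2.18 and Lyz2 3.26, 1.20 and 2.18, highest in replicate 1 in both cases. The 15 tested of 20 stellate cell and fibroblast markers summed to 102 to 129 in fresh and 86.6 to 152 in induced cells. Of these 15, 6 were higher, among them Col1a1 and Col3a1, and 6 lower. Colec11 and Colec10, which stellate cells express, were at least 13-fold and 8.48-fold lower, and Des, desmin, lay within 2-fold at -0.30 ± 0.25. Only 2 of 8 mesothelial markers were tested, and these 2 summed to 0.133 to 0.222 in fresh and 3.85 to 7.26 in induced cells. Msln was at least 47.9-fold higher, and 6 of the 8 were below background on all induced arrays. The 5 tested of 18 lymphocyte and neutrophil markers summed to 63.9 to 67 in fresh and 13.9 to 18.5 in induced cells. For the 5 tested of 9 erythroid markers the sums were 4.11 to 5.28 and 0.844 to 1.21. The part of other cells in the differences of the matrix, immune and endothelial genes was not tested.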

How the data were processed

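RNA of 21 samples was hybridised to Agilent one-colour mouse arrays. Per the file headers, the deposited scanner files hold spot intensity from Agilent Feature Extraction, in version 11.5.1.1 on fresh and P1 samples and in version 10.7.3.1 on late-passage samples. The authors' deposited log2 table equals log2 of the processed intensity minus each array's 75th percentile, to within 2.03e-06 after an offset per array of 0.00423 to 0.0076 over 56605 probes. The 75th percentile of intensity was 291 to 332 on fresh and 466 to 573 on induced arrays, and no spot was saturated. The number of arrays limits the precision.

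Log2 processed intensity was averaged over the spots of a probe, leaving out control and outlier-flagged spots. The 75th percentile of the array's probes was then subtracted. Each gene was represented by the brightest of its probes, averaged across the 21 arrays. The 12 fresh and P1 arrays were fitted together by group in limma 3.58.1 (lmFit, eBayes) under R 4.3.3, with 10.5 degrees of freedom in total and Benjamini-Hochberg adjustment over 19087 genes. A further 17944 genes were not well above background and 43 had an outlier spot. Genes carry the names of the array design. Of 32994 probes with an accession found in RefSeq, 31459 had the same symbol. Probe coordinates are mm9 and promoter sequences RefSeq GRCm38.p6.

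The comparison and its 50 gene lists (1470 entries, 1340 tested) were chosen with earlier results of these data known, so list counts are a description. Named genes were 40 core genes and the 10 most raised and 10 most lowered genes measured on every array of both groups without overlap. To these came the 6 with the highest bound in each direction and the 10 brightest of each group. Each list added up to 2 raised, 2 lowered and 2 nearest to 0. Alternatives were quantile, median and normexp (offset 50) processing, the authors' table, the 6 arrays alone, the mean of probes, other filters, slide and replicate blocks, and leaving out each array or slide. Reading only scan day 2 and only probes of 1 gene were chosen after seeing the data. The fit was tested on simulated data. Figures used Python 3.11.15, numpy 2.4.6 and matplotlib 3.10.9. A few genes are not reported here.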

Additional observations from a re-analysis of the deposited data

How the results depend on the processing

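No named gene reversed its direction after a call under the alternatives run, but medians of lists did change sign. Where both groups had to be above background the medians of the fetal list went from 3.60 to -1.31, of the chemokines from 1.61 to -0.41 and of the Kupffer markers from -3.60 to 0.18. The median of the 2 tested mesothelial markers went from 3.77 to -0.14 with no filter. That of the glucocorticoid targets changed sign under median scaling, that of the NRF2 targets after quantile normalization, and that of the immediate early genes, 0.04, lay between -0.19 and -0.01 under 6 alternatives, median scaling among them. The count of genes that rose, 3739, went to 1910 where both groups had to be above background. It ranged from 2579 (normexp) to 4419 (no filter on dim probes) otherwise, and the count that fell, 3826, ranged from 2987 (both groups above background) to 4861 (median scaling). Leaving out 1 array gave 3688 to 3801 risen and 3655 to 3937 fallen genes. Where both groups had to be above background, the list counts were as follows: bile acid genes 10 lower, female-biased genes 12 and male-biased genes 8 lower, progenitor genes 10 higher, fetal genes 2, cell cycle genes 7, mesenchymal genes 4, matrix genes 16, integrins 8, YAP and TEAD targets 9, cytoskeleton genes 14 and chemokines 7 higher, endothelial markers 2, Kupffer markers 1 and stellate markers 1 lower, and mesothelial markers 0 higher. This setting tests 15649 genes, without those dim in 1 group. Quantile normalization left 7 cholesterol genes lower, probes of 1 gene left 15 female-biased genes lower, and the erythroid markers had 1 lower under normexp and without slide 5. Clock genes had 5 lower in place of 3 under median scaling, and 3 to 5 when an array was left out. The cause was not tested in these cases. A random block for slide, with an estimated correlation of 0.55, gave 3695 and 3736. Deviations from the group mean were little correlated between same-numbered fresh and induced arrays (-0.003, -0.074 and 0.055). With 3 arrays per group this cannot tell whether such arrays share a source. A replicate block gave 3741 higher and 3835 lower genes, with the call of all 284 named genes kept. Signals near background limit the fold change of dim genes.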

Other observations

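Clock genes and immediate early genes were also read. Of 20 tested clock genes 3 fell, 2 rose, 4 lay within 2-fold and 11 did none of these, with a median of -0.32 against -1.48 at day 0 and -1.17 without inducers. The median was -0.63 without fresh replicate 3, -0.07 within scan day 2, -0.17 after quantile normalization and -0.56 under median scaling. Hlf, a clock output factor, read 2.71, 2.27 and 1.73 in fresh and -2.66, -2.92 and -3.16 in induced cells, a difference of -5.15 ± 0.41. Nr1d1, a clock repressor, fell by 4.33 ± 0.35, with 2 of 3 induced arrays above background. Nfil3, which opposes clock outputs, read 1.90, 3.88 and 4.81 in fresh and 4.71, 4.91 and 4.93 in induced cells. These groups overlapped, and the difference of 1.32 ± 0.54 (limma, adjusted p = 0.045) was 0.51 without fresh replicate 1 and 0.04 within scan day 2, which end the call. The labels used here give no time of day.

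Of 25 tested immediate early and heat shock genes 8 rose, 8 fell and 6 lay within 2-fold, with a median of 0.04 that was -0.19 under median scaling. Fos, an early response factor, read 5.34, 3.88 and 4.21 in fresh and 0.34, 1.01 and 0.31 in induced cells, a difference of -3.93 ± 0.40, and Nr4a1, an orphan nuclear receptor, fell by 4.68 ± 0.30. Klf4, an epithelial zinc finger factor, read -1.08, -2.11 and -1.83 in fresh and 4.85, 5.29 and 5.23 in induced cells, a difference of 6.79 ± 0.23. Ier3, another early response gene, was at least 226-fold higher. The chaperones Hspa8 and Hsp90aa1 lay within 2-fold at 0.04 ± 0.23 and 0.10 ± 0.37, and read highest in fresh replicate 2.

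The probes of 1 gene could disagree. Il1rap, an interleukin receptor chain, differed by 0.24 on its brightest probe and by -2.38 as the mean of its probes.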
